A study of Rattus norvegicus with 12 samples.

Results

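The BCL2 family decides whether the outer membrane of the mitochondrion stays intact, and 10 of its genes were followed here in rat kidney after cardiopulmonary bypass with and without nitrite. The genes were given by name: the anti-apoptotic Bcl2, Bcl2l1 and Mcl1, the pore-forming Bax and Bak1, and the BH3-only Bid, Bcl2l11, Bbc3, Pmaip1 and Bmf. All 10 were found, each in 1 row, among 20455 annotated genes, and all 10 were among the 14664 genes with enough reads to be tested. RNA came from 12 rat kidney samples in 3 groups of 4: sham surgery, cardiopulmonary bypass (CPB, in which a pump and an oxygenator take over for heart and lungs) and bypass with nitrite (CPB+Nitrite). The study's title places it in acute kidney injury after cardiac surgery and asks whether nitrite protects the kidney. Strain, age, nitrite dose and time of sampling are not given in the sources used here, and no genetic change is named for any group. Nothing in the labels says that the 4 replicates were separate animals, so each p-value measures only the spread between these samples.

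Proteins of this family share short BCL2 homology (BH) domains. Bax and Bak1 open pores in the outer mitochondrial membrane and release cytochrome c, which joins Apaf1 in the apoptosome and activates caspases. Bcl2, Bcl2l1 (encoding BCL-xL) and Mcl1 hold the pore formers and the BH3-only proteins in check, and the BH3-only proteins carry signals from DNA damage, stress and death receptors to this switch. In the kidney, tubular epithelium is the best known site of such cell death after ischemia. Much of the control acts on the proteins themselves, and RNA levels do not measure it.

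Library totals ran from 16.8 to 25.8 M reads, and levels are given as counts-per-million (CPM), scaled with edgeR's TMM factors of 0.887 to 1.11. Kidney markers were present in every library, with summed proximal tubule markers between 1961 and 4540 CPM. Library CPB+Nitrite 2 stood apart: its loop of Henle and distal tubule markers summed to 451 CPM, against 4537 to 8677 in the other 11, and its endothelial markers to 2124 CPM, against 79.5 to 288. Erythrocyte markers there summed to 7743 CPM, against 306 to 3630 elsewhere. Collecting duct markers summed to 3997 CPM, against 709 to 1769, and podocyte markers to 729 CPM, against 164 to 383. Summed tubular injury markers (Havcr1, Lcn2, Krt20, Timp1) were 8.05 to 42.7 CPM in sham, 730 to 1235 in CPB, and 846, 66.2, 42.6 and 374 CPM in CPB+Nitrite replicates 1 to 4. All 4 injury markers were called higher in CPB than in sham. In bulk tissue, fewer cells of a type and less RNA per cell cannot be told apart.

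Promoter windows from RefSeq on build GRCr8 (250 bases before to 50 after a start site) were found for 8 of the 10 genes, and Bax and Bbc3 had none. The windows of the 4 most changed higher genes with an entry, and of Bcl2, the gene that fell, are printed to show which known response elements stand beside their start sites. Capitals mark motif matches on either strand. In Pmaip1 (chr18:62255720-62256019, plus strand) these are, in order, a GC box (GGGCGG), a CRE-like element (TNACGTCA) and a pair of overlapping NF-kappaB matches. In Mcl1 (chr2:185907918-185908217, plus strand) an NF-kappaB match runs into a GC box on the opposite strand. Bak1 (chr20:5110925-5111224, minus strand) shows 1 GC box, and Bid (chr4:155808270-155808569, minus strand) shows 3. In Bcl2 (chr13:23366851-23367150, minus strand) the capitals are an ATF4 composite element (TGATGNAA) and a TATA match (TATAAA).
Pmaip1: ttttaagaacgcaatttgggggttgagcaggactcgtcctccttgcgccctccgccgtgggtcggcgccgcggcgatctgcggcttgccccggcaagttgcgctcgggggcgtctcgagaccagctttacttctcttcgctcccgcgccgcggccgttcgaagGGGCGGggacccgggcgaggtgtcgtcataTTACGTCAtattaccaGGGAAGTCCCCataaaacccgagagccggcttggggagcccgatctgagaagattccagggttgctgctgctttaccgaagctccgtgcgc
Mcl1: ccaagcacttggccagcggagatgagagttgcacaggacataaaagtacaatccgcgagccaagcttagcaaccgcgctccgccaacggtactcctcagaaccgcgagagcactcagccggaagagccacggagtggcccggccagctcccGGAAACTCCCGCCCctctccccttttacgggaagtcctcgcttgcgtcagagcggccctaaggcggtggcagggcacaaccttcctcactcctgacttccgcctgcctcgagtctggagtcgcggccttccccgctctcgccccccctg
Bak1: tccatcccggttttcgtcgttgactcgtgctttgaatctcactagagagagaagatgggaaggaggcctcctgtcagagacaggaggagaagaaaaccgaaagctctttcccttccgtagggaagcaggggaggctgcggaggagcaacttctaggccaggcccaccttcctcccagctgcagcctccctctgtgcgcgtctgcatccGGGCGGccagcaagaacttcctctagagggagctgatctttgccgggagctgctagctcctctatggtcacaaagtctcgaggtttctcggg
Bid: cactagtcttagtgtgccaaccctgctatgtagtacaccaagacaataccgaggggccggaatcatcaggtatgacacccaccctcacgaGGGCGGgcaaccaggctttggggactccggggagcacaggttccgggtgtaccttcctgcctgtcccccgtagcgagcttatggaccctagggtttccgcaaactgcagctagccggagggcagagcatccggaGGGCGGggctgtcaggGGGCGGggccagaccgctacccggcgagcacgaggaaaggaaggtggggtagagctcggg
Bcl2: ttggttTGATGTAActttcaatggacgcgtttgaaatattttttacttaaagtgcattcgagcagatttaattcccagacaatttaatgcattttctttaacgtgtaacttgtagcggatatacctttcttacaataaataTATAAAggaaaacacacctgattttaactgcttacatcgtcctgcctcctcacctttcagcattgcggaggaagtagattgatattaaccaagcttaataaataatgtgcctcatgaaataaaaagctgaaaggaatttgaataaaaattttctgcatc

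The CRE-like element of Pmaip1 begins 57 bases before the start site (position -57) and is the form bound by ATF and CREB factors. It was present in 3.25% of all 33469 RefSeq windows of this length. NF-kappaB matches (GGGRNNYYCC) were in 7.51% of windows, ATF4 composite elements in 3.98%, TATA matches in 14.2% and GC boxes in 33.1%. In these patterns R is A or G, Y is C or T, W is A or T and N is any base. The Bcl2 window held 32.7% G and C, and the other 4 printed windows held 57.7% to 64.3%. Bcl2l1 had 4 windows, which held STAT (TTCNNNGAA, 8.87% of all windows) and ATF4 composite matches, and that of Bcl2l11 held a FOXO match (GTAAACA, 3.78%). No AP-1 match (TGANTCA, 7.33%), CArG box (by name, 1.64%) or IRF pair (by name, 3.92%) was in any member's window. The motifs were chosen after the values were seen, and a match describes letters, not binding.

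After bypass, RNA was higher from both pore formers, from 3 of the 5 BH3-only genes and from 2 of the 3 anti-apoptotic genes, and lower from Bcl2. In all, 7 of the 10 members were called higher in CPB than in sham and 1 lower (edgeR quasi-likelihood test, Benjamini-Hochberg adjusted over all tested genes, threshold 0.05). Of all tested genes, 43.2% were called in this comparison, 21.7% higher and 21.5% lower. The median log2 change over the 10 members was 1.10, and over all tested genes it was -0.05. Libraries of the groups did not overlap for 9 members, 8 higher and 1 lower, against 48.2% of all tested genes (23.5% higher and 24.8% lower). Before adjustment, 9 members and 52.6% of all tested genes had a p under 0.05.

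**Figure D1:**
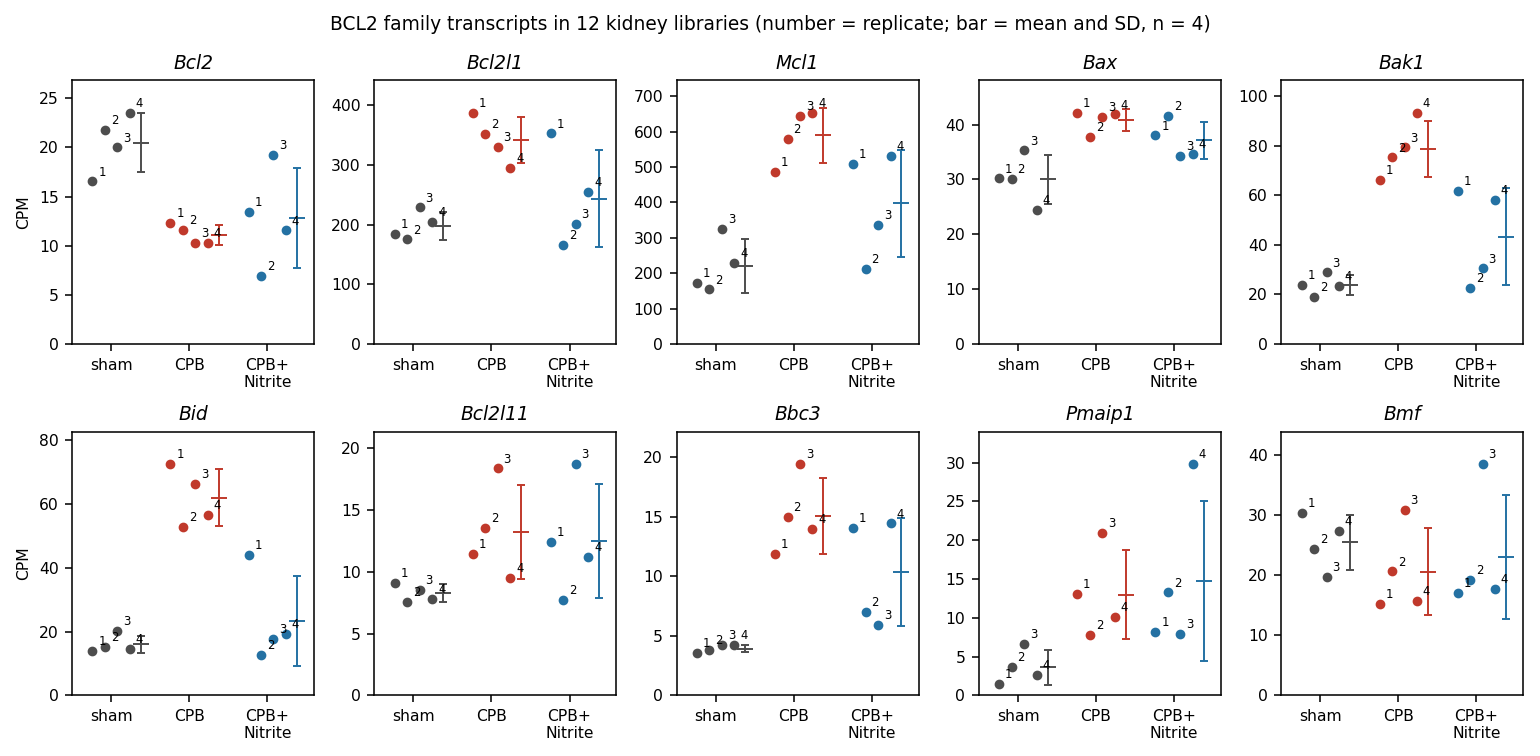
Level of each of the 10 BCL2 family genes in the 12 libraries, in CPM on a linear axis from 0, by group (sham, CPB, CPB+Nitrite), with 1 numbered point per library and the mean and SD (n = 4) beside each group. The CPB points of Bid lie between 52.8 and 72.6 CPM, above all 4 sham points, while its CPB+Nitrite points spread from 12.6 to 44.0 CPM.

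Bcl2 (ENSRNOG00000067693, chromosome 13, 22684989 to 22853743, minus strand, build mRatBN7.2) encodes the family's founding inhibitor of cell death. Its level was 16.5, 21.8, 20.0 and 23.5 CPM in the sham libraries and 12.3, 11.6, 10.3 and 10.2 CPM in the CPB libraries. Every CPB library lay below every sham library. The mean fell from 20.5 ± 3.0 to 11.1 ± 1.0 CPM (SD, n = 4 each), a log2 change of -0.88 (SE 0.25, edgeR adjusted p = 0.0153). Among structural markers in the same comparison, 3 of 5 for smooth muscle and pericytes were called lower (median log2 change -1.58), as were 2 of 5 for collecting duct (median -0.89). For endothelium 2 of 6 were called lower and 1 higher (median -1.30), and for proximal tubule 2 of 6 were called lower (median -0.19). For loop of Henle and distal tubule 0 of 3 tested markers were called (median -0.95), and for podocytes 0 of 4 (median 0.03). Of all tested genes 21.5% were called lower. Their part in the fall of Bcl2 was not tested.

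Bcl2l1 (ENSRNOG00000007946, chromosome 3, 141253523 to 141303479, minus strand), whose long protein form blocks Bax and Bak1, stood at 185, 175, 229 and 204 CPM in sham. After bypass it read 388, 352, 330 and 296 CPM, and the groups did not overlap. The log2 change was 0.78 (SE 0.21, edgeR adjusted p = 0.0111), with means of 198 ± 23.6 and 341 ± 38.6 CPM (SD, n = 4 each). Gene totals do not separate its long protective splice form from the short one that favours death.

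Mcl1 (ENSRNOG00000063678, chromosome 2, 183219220 to 183222303, plus strand) encodes a short-lived inhibitor that is quickly induced and quickly degraded. Sham libraries held 173, 154, 325 and 229.7 CPM, and CPB libraries 485, 579, 643 and 654 CPM. The lowest CPB library lay above the highest sham library, sham 3. Mcl1 rose 2.68-fold (log2 change 1.42, SE 0.30, edgeR adjusted p = 0.00367). Of the 3 anti-apoptotic genes it changed by the largest amount on the log2 scale.

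Bak1 (ENSRNOG00000000485, chromosome 20, 5100480 to 5109264, minus strand) encodes the pore former that resides in the mitochondrial membrane. It read 23.8, 19.1, 28.9 and 23.4 CPM in sham and 66.3, 75.3, 79.3 and 93.4 CPM in CPB. The CPB libraries were all far above the sham libraries, at a mean of 78.6 ± 11.3 against 23.8 ± 3.99 CPM (SD, n = 4 each). The rise was 3.30-fold (log2 change 1.72, SE 0.29, edgeR adjusted p = 0.00139).

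Bax (ENSRNOG00000020876, chromosome 1, 95938808 to 95945368, minus strand) encodes the pore former that moves from the cytosol to mitochondria. Its sham libraries held 30.2, 30.2, 35.3 and 24.5 CPM and its CPB libraries 42.2, 37.8, 41.5 and 41.9 CPM. Groups did not overlap, and the log2 change was 0.44 (SE 0.13, edgeR adjusted p = 0.0188), the smallest of the called members. Scaling to total counts alone gave 0.25 (adjusted p = 0.143), and leaving out sham 4 gave 0.36 (adjusted p = 0.0551). Over the 21 alternatives the adjusted p of Bax ran from 0.00291 to 0.143. Bax overlaps Ftl1 on the same strand, so that reads could be split between them. Ftl1, ferritin light chain, had a log2 change of 0.13 (edgeR adjusted p = 0.560).

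Among the BH3-only genes, Bid (ENSRNOG00000012439, chromosome 4, 154113198 to 154134720, minus strand) links death receptors to mitochondria once caspase 8 has cleaved its protein. Levels were 14.0, 15.1, 20.1 and 14.7 CPM in sham and 72.6, 52.8, 66.3 and 56.5 CPM in CPB. No CPB library came near the sham range, and the log2 change was 1.96 (SE 0.32, edgeR adjusted p = 0.00134, 3.89-fold). It was the largest log2 change among the 10 members.

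Bbc3 (ENSRNOG00000062473, chromosome 1, 77014543 to 77022509, plus strand) encodes PUMA, which binds all the anti-apoptotic proteins. Sham libraries were tightly grouped at 3.54, 3.78, 4.21 and 4.21 CPM, while CPB libraries held 11.9, 15.0, 19.4 and 14.0 CPM. The rise was 3.83-fold, with a log2 change of 1.94 (SE 0.29, edgeR adjusted p = 0.00107) and no overlap.

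Pmaip1 (ENSRNOG00000018770, chromosome 18, 59986017 to 59992429, plus strand) encodes NOXA, which binds MCL1 and is induced through ATF4. It was at 1.49, 3.66, 6.62 and 2.61 CPM in sham and 13.1, 7.83, 21.0 and 10.1 CPM in CPB. Replicate 3 was the highest library of each of these groups, and the lowest CPB library, CPB 2, lay just above sham 3. The log2 change was 1.85 with the widest error of the 10 (SE 0.52, edgeR adjusted p = 0.0141, 3.61-fold). This is the gene whose window holds the CRE-like element printed above.

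Bcl2l11 and Bmf were not called. Bcl2l11 (ENSRNOG00000016551, chromosome 3, 115366646 to 115404068, plus strand) encodes BIM, a FOXO target that binds all the anti-apoptotic proteins. Its sham libraries held 9.12, 7.56, 8.55 and 7.83 CPM and its CPB libraries 11.4, 13.5, 18.4 and 9.51 CPM. The groups did not overlap, but the CPB libraries were spread, and the log2 change of 0.68 (SE 0.27) gave an edgeR adjusted p of 0.0556. In 9 of 21 alternatives it passed the threshold, and its adjusted p ran from 0.00481 to 0.179.

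Bmf (ENSRNOG00000007529, chromosome 3, 105499538 to 105520145, minus strand), whose protein is held by dynein light chain, was at 30.4, 24.4, 19.7 and 27.3 CPM in sham and 15.2, 20.6, 30.9 and 15.7 CPM in CPB. Groups overlapped, since CPB 3 was the highest of these 8 libraries, and the log2 change was -0.31 (SE 0.30, edgeR adjusted p = 0.411). CPB 3 was the highest CPB library of Bcl2l11, Bbc3, Pmaip1 and Bmf, but not of Bid.

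**Figure D2:**
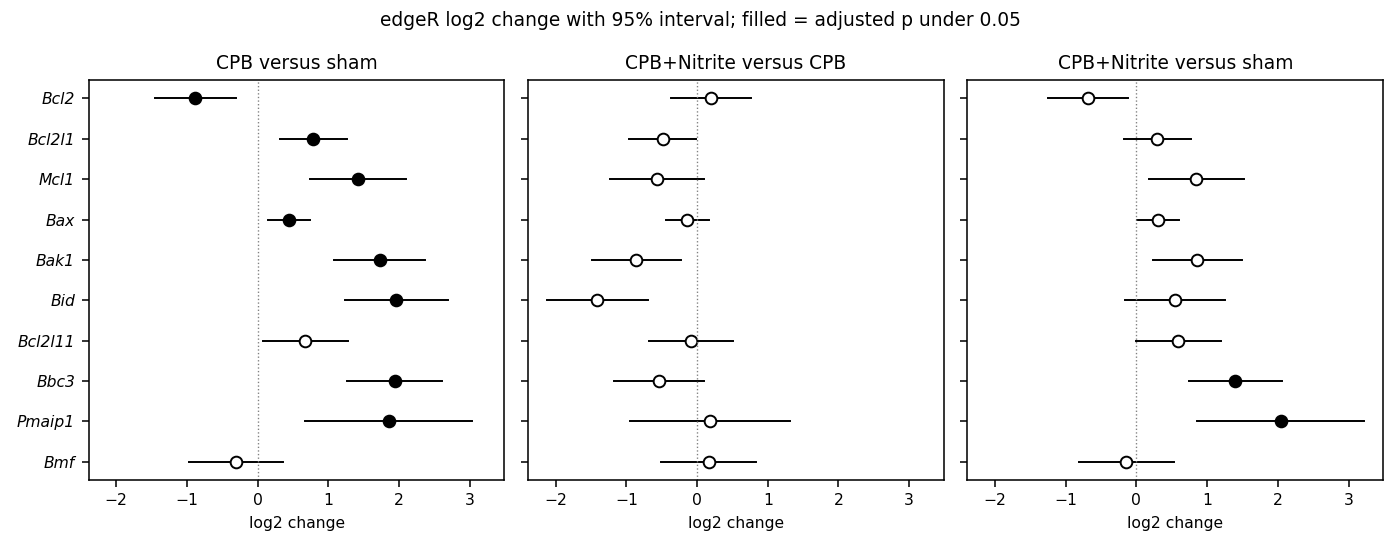
Log2 change of each of the 10 members in the 3 comparisons, with filled points where the adjusted p was under 0.05. Bars are 95% intervals from the SE of edgeR's quasi-likelihood fit of 12 libraries, with 9 residual degrees of freedom. They can be wider than edgeR's p implies: that of Bcl2l11 in CPB+Nitrite against sham crosses 0 at an unadjusted edgeR p of 0.0433. CPB against sham has 8 filled points, CPB+Nitrite against CPB has 0, and CPB+Nitrite against sham has 2 (Bbc3 and Pmaip1).

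Nitrite was then set against bypass alone. No member was called between CPB+Nitrite and CPB, and 0 of all tested genes (0%) were called, with a smallest adjusted p of 0.0556 over all genes (edgeR). At an unadjusted p under 0.05 stood 4315 genes (29.4%) and 3 members, Bid, Bak1 and Bcl2l1, each lower with nitrite. DESeq2 called 2239 genes and 2 members, Bid and Bak1, and voom called 1 gene and no member. A negative log2 change stood for 7 members and a positive one for 3, with a median of -0.31, against 0.05 over all tested genes. This comparison and the one of CPB with sham share the CPB libraries.

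Bid read 44.0, 12.6, 17.7 and 19.3 CPM with nitrite, all below the lowest CPB library at 52.8 CPM. The log2 change was -1.41 (SE 0.32, edgeR adjusted p = 0.0556), or 0.377 of the CPB level with a 95% interval of 0.230 to 0.618 before adjustment for the number of genes. Replicates 3 and 4 lay within the sham range of 14.0 to 20.1 CPM, replicate 2 below it and replicate 1 between the sham and CPB ranges. DESeq2 gave an adjusted p of 0.00136, and over the 21 alternatives the value ran from there to 0.166.

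Bak1 read 61.7, 22.7, 30.5 and 58.2 CPM with nitrite, again below every CPB library. Replicates 1 and 4 were close to the CPB range and replicates 2 and 3 close to the sham range. The log2 change was -0.86 (SE 0.28, edgeR adjusted p = 0.0794), and over the alternatives the adjusted p ran from 0.0218 to 0.183. Non-overlapping groups, as for Bid and Bak1, were found for 12.7% of all tested genes, 6.27% lower and 6.44% higher with nitrite.

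The anti-apoptotic genes overlapped between CPB+Nitrite and CPB. Bcl2l1 held 353, 166, 202 and 254 CPM with nitrite (log2 change -0.49, SE 0.21, edgeR adjusted p = 0.145). Mcl1 held 509, 212, 336 and 532 CPM (-0.57, SE 0.29, adjusted p = 0.207). For both, replicate 1 was within the CPB range, and replicate 2 was below the sham range for Bcl2l1 and within it for Mcl1. Bcl2 held 13.4, 6.93, 19.3 and 11.6 CPM (log2 change 0.20, SE 0.25, edgeR adjusted p = 0.609). Replicate 2, the library with few loop of Henle and distal tubule markers, had the lowest Bcl2 of all 12, and replicate 3 lay within the sham range.

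Bbc3 was at 14.0, 7.0, 5.93 and 14.4 CPM with nitrite (log2 change -0.54, SE 0.28, edgeR adjusted p = 0.214). Replicates 1 and 4 lay within the CPB range, and replicates 2 and 3 between the sham and CPB ranges. Pmaip1 was at 8.16, 13.3, 7.94 and 29.8 CPM, so that replicate 4 was the highest of all 12 libraries (0.19, SE 0.50, adjusted p = 0.821). Bax at 38.03, 41.6, 34.3 and 34.7 CPM differed by -0.14 (SE 0.13, adjusted p = 0.496). Bcl2l11 at 12.4, 7.69, 18.7 and 11.2 CPM differed by -0.08 (SE 0.26, adjusted p = 0.854), and Bmf at 17.1, 19.2, 38.5 and 17.6 CPM by 0.17 (SE 0.30, adjusted p = 0.725). For Bcl2l11 and Bmf alike, replicate 3 was the highest nitrite library.

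The SD of the CPM was largest in CPB+Nitrite for 9 of the 10 members, with Bax as the exception. The share of all tested genes with this trait was not computed. Over all tested genes, each nitrite library had a median correlation with its own group of 0.918 to 0.947. The same value was 0.966 to 0.977 in sham and 0.9735 to 0.980 in CPB. Nitrite libraries were thus less alike over all tested genes too, which is a different measure from the SD of single genes. Bid, Bak1, Bcl2l1, Mcl1 and Bbc3 were each higher in replicates 1 and 4 than in replicates 2 and 3, as were the summed injury markers (846 and 374 against 66.2 and 42.6 CPM). Bcl2, Bax, Bcl2l11, Pmaip1 and Bmf did not follow this order. For Bid, replicates 4 and 3 were close, at 19.3 and 17.7 CPM. Injury marker Havcr1 alone was at 721, 35.5, 22.6 and 275 CPM in replicates 1 to 4. What sets these libraries apart was not tested. Without CPB+Nitrite 1, edgeR called 3 members lower than CPB: Bid by -1.95 (adjusted p = 0.00305), Bak1 by -1.12 (adjusted p = 0.0218) and Bcl2l1 by -0.76 (adjusted p = 0.0186), and 2865 genes in all. Without CPB+Nitrite 2, no member was called, and Bid differed by -1.2 (edgeR adjusted p = 0.115).

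**Figure D3:**
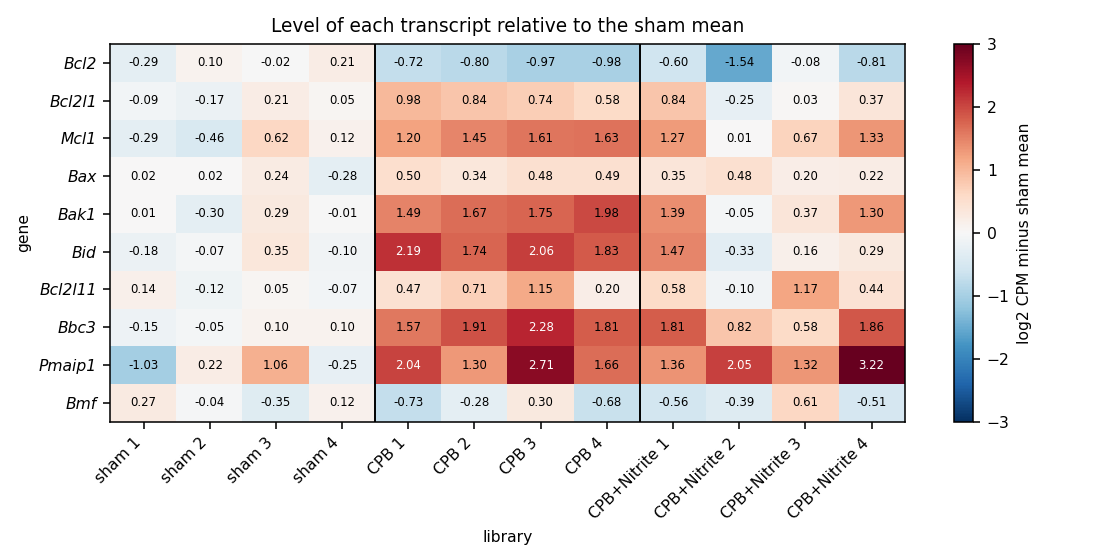
Log2 CPM of the 10 members (rows) in the 12 libraries (columns), each relative to the gene's own sham mean, in a colour scale from lower to higher. The 4 CPB columns are higher for 8 members and lower for Bcl2, and for Bak1 the CPB+Nitrite columns read 1.39, -0.05, 0.37 and 1.30.

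Set against sham, CPB+Nitrite had 2 members called higher, both BH3-only genes, and none lower. Of all tested genes 4.81% were called, 3.85% higher and 0.955% lower. At an unadjusted p under 0.05 stood 7 members and 27.4% of all tested genes. The groups did not overlap for 2 members, both higher, against 11.5% of all tested genes (5.64% higher, 5.87% lower). Bbc3 had a mean of 10.4 ± 4.51 CPM with nitrite and 3.93 ± 0.332 CPM in sham (SD, n = 4 each), a log2 change of 1.40 (SE 0.29, edgeR adjusted p = 0.0318, 2.63-fold). Pmaip1 had 14.8 ± 10.3 against 3.60 ± 2.20 CPM (log2 change 2.04, SE 0.52, edgeR adjusted p = 0.0477, 4.11-fold). All 4 nitrite libraries of each lay above all 4 sham libraries. Both calls depended on single libraries: Bbc3 was not called in 6 of the 12 fits that left out 1 library (sham 1, 2 or 4, CPB 2, CPB+Nitrite 1 or 4), and Pmaip1 in 9 of 12 (all but sham 3, CPB+Nitrite 2 and CPB+Nitrite 3). Over those 12 fits the log2 change ran from 1.19 to 1.58 for Bbc3 and from 1.45 to 2.52 for Pmaip1. Genes called ran from 0 to 2976 in the same fits. Adjusted p over the 21 alternatives ran from 0.000332 to 0.118 for Bbc3 and from 0.00151 to 0.144 for Pmaip1.

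The other 8 members were not called against sham. Bak1 differed by 0.86 (SE 0.28, edgeR adjusted p = 0.0803), Mcl1 by 0.85 (SE 0.29, adjusted p = 0.0953) and Bcl2 by -0.68 (SE 0.25, adjusted p = 0.111). Bid, at 1.96 in CPB, was at 0.55 here (SE 0.31, adjusted p = 0.270), and Bcl2l1 at 0.30 (SE 0.21, adjusted p = 0.371). Values for Bax, Bcl2l11 and Bmf were 0.31, 0.59 and -0.14, with edgeR adjusted p of 0.159, 0.168 and 0.782. Without CPB+Nitrite 2, 4 members were called: Bbc3 (1.54), Pmaip1 (2.09), Mcl1 (1.06, adjusted p = 0.0243) and Bak1 (1.08, adjusted p = 0.0192). Without CPB+Nitrite 3, 4 were called as well, with Bak1 and Bcl2 in addition to Bbc3 and Pmaip1. These values share the sham libraries with the comparison of CPB and sham.

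Balance between members was described by the log2 ratio of 2 genes in a library, relative to the mean of the sham libraries, which cancels gene length. The ratio of Bak1 to Bcl2 was -0.40 to 0.32 in sham and 2.21 to 2.96 in CPB. In CPB+Nitrite replicates 1 to 4 it was 1.98, 1.49, 0.45 and 2.11. For Bax to Bcl2, sham libraries ran from -0.50 to 0.31, CPB libraries from 1.15 to 1.47 and nitrite libraries read 0.95, 2.02, 0.28 and 1.03. All CPB libraries lay above the sham range in the ratio of either pore former to Bcl2. Nitrite replicates 1, 2 and 4 lay above it in both ratios, and replicate 3 lay above it for Bak1 and within it for Bax. Against Bcl2l1, which rose itself, the ratio of Bak1 was 0.52 to 1.40 in CPB and 0.55, 0.20, 0.34 and 0.94 with nitrite. The ratio of Mcl1 to Bcl2, between a pair of protective genes, was 1.92 to 2.61 in CPB. Bcl2 was the only member called lower in CPB, so ratios to it do not stand for the balance of the whole family. Ratios of Bax to Bcl2l1 and of either pore former to Mcl1 were not computed. In the log2 change from sham to CPB, Bax rose by 0.44, less than Bcl2l1 (0.78) and Mcl1 (1.42). Bak1 rose by 1.72, more than either. No test was made on ratios, since they are built from the same values.

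Of the rest of the family, 11 genes were tested and 2 rose and 1 fell in CPB, with a median log2 change of -0.13, against 21.7% higher and 21.5% lower among all tested genes. Leaving out 1 library gave 2 to 5 called genes in place of 3, with 5 when CPB+Nitrite 2 was left out. Bcl2a1, a protective gene of blood cells and a known NF-kappaB target, rose from 0.792 ± 0.226 to 5.28 ± 1.64 CPM (SD, n = 4 each; log2 change 2.73, SE 0.54, edgeR adjusted p = 0.00266). It was at 5.07, 0.806, 1.08 and 2.53 CPM with nitrite. Summed neutrophil markers were 3.72 to 10.7 CPM in sham and 10.7 to 21.4 CPM in CPB, where 3 of 5 were called higher and 1 lower, and their part in the rise was not tested. With nitrite the neutrophil markers summed to 15.2 to 16.9 CPM in all 4 libraries. Bcl2l13, a mitophagy receptor, rose by 0.80 (edgeR adjusted p = 0.00510), and Bad, a BH3-only gene controlled by phosphorylation, fell by 0.59 on the log2 scale (adjusted p = 0.0377). Bcl2l2, Bok, Bik, Bcl2l12, Bcl2l14, Bcl2l15, Bnip3 and Bnip3l were not called, with log2 changes from -0.82 (Bcl2l14, edgeR adjusted p = 0.0571) to 0.54 (Bnip3, adjusted p = 0.0659). Bok, a pore former, was at 321 CPM in CPB+Nitrite 2 and at 17.7 to 64.1 CPM in every other library.

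Downstream of the pore, 16 apoptosome and caspase genes were tested, of which 4 rose and 4 fell in CPB (median -0.02), against 43.2% of all tested genes called. Leaving out 1 library gave 5 to 10 called genes, with 5 when CPB 2 was left out. Apaf1, the scaffold that cytochrome c binds, rose from 4.10, 5.87, 6.09 and 7.25 CPM to 14.7, 21.1, 21.1 and 22.6 CPM (log2 change 1.77, SE 0.29, edgeR adjusted p = 0.00142). Endog, a mitochondrial nuclease, fell by 1.28 on the log2 scale (edgeR adjusted p = 0.00404). Among 5 inhibitors of apoptosis, which block caspases or signal from TNF receptors, Birc2 (2.03, edgeR adjusted p = 0.00107) and Birc3 (3.32, adjusted p = 0.00164) rose. Birc5, which also serves cell division, fell by 1.41 on the log2 scale (adjusted p = 0.00544). Birc3 read 7.34, 6.76, 19.3 and 7.44 CPM in sham and 66.6, 104, 111 and 127 CPM in CPB.

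Upstream, in the arm that feeds Bid, 7 of 9 death receptor genes rose in CPB and 0 fell (median 1.09), against 21.7% of all tested genes higher and 21.5% lower. Tnfsf10, the ligand TRAIL, rose from 3.54, 9.98, 8.14 and 5.70 CPM to 57.6, 107, 123 and 111 CPM (log2 change 3.86, SE 0.53, edgeR adjusted p = 0.000999). Receptor Tnfrsf1a (2.10, adjusted p = 0.00164), the kinase Ripk1 (1.46, adjusted p = 0.00256) and Casp8, whose product cleaves BID (1.09, adjusted p = 0.00174), rose as well. Of 12 transcription factors known to act on family genes, 7 rose and 1 fell (median 1.2), beside the same all-gene shares of 21.7% and 21.5%. Atf4, of the stress response, rose by 2.15 (edgeR adjusted p = 0.00107) and its partner Ddit3 by 1.94 (adjusted p = 0.00336). The NF-kappaB subunit Rela rose by 1.37 (adjusted p = 0.00109). Of 8 genes acting on the proteins after translation, 3 rose and 0 fell (median 0.34), beside 43.2% of all tested genes called. They were Fbxw7, a ligase subunit for MCL1 (1.04, edgeR adjusted p = 0.00169), Dynll1, which holds BIM (0.76, adjusted p = 0.00951), and the kinase Gsk3b (0.77, adjusted p = 0.0214). Libraries of sham and CPB overlapped for Dynll1 and Gsk3b.

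**Figure D4:**
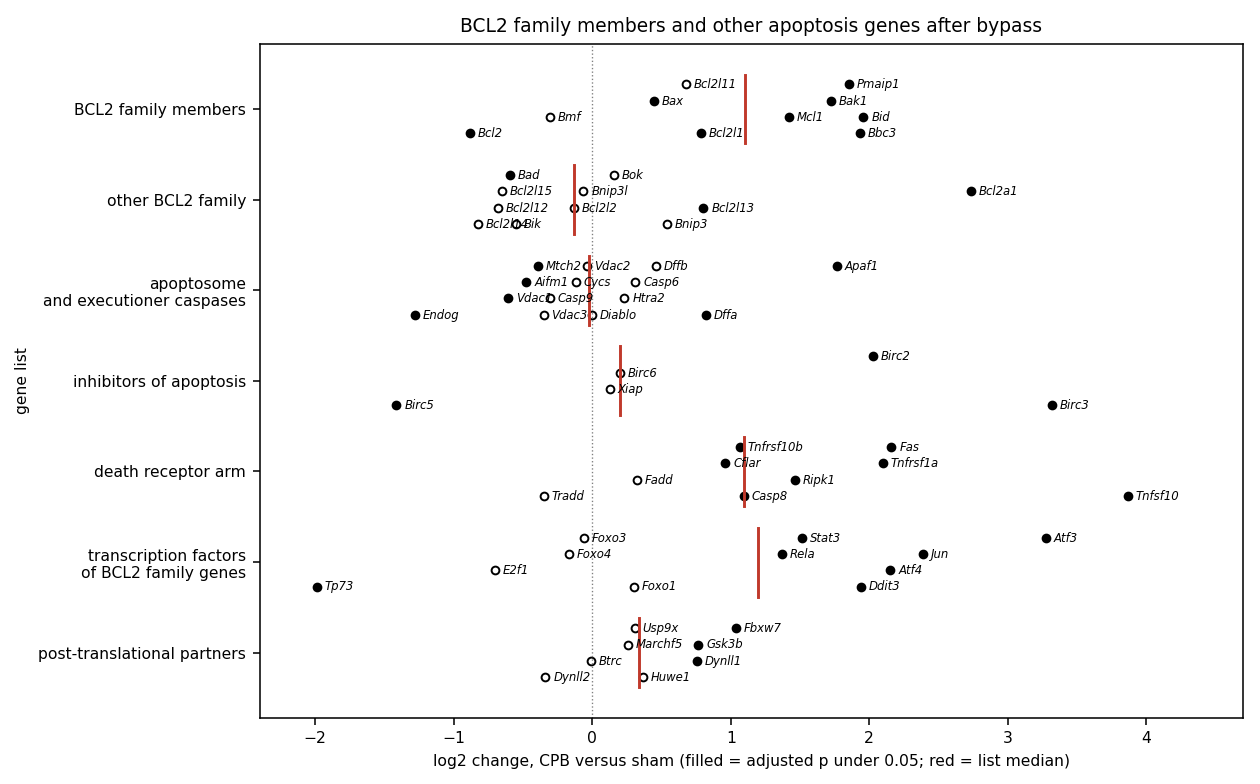
Log2 change in CPB against sham for the 10 members and for tested genes of the 6 pathway lists, 1 point per gene, with a few genes that are not reported here left out of the points but not of the medians (filled where the adjusted p was under 0.05), with a red bar at each list's median and points spread vertically for legibility. Medians lie at 1.10 for the members, 1.09 for the death receptor list and 1.2 for the transcription factors, and between -0.13 and 0.34 for the other 4 lists.

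Between CPB+Nitrite and CPB no gene of these 6 lists was called. Leaving out 1 library gave 0 to 6 death receptor genes, 0 to 6 apoptosome and caspase genes and 0 to 2 transcription factors. Each of the remaining lists had 0 to 1 gene called in those fits, beside 0 to 2865 of all tested genes. All 9 death receptor genes had negative log2 changes (median -0.67), with Tnfsf10 at -1.82 (edgeR adjusted p = 0.0611). Tnfsf10 read 56.7, 18.0, 8.42 and 30.1 CPM with nitrite, so that replicate 3 lay within the sham range. Birc2 differed by -1.27 (edgeR adjusted p = 0.0556) and Apaf1 by -1.05 (adjusted p = 0.0627). List medians were 0.19 for the other family genes, -0.10 for the apoptosome and caspases, -0.47 for the inhibitors of apoptosis, -0.24 for the transcription factors and -0.35 for the post-translational partners. Against sham, CPB+Nitrite had Birc3 (2.42, edgeR adjusted p = 0.0402), Tnfrsf1a (1.49, adjusted p = 0.0426) and Tnfsf10 (2.05, adjusted p = 0.0443) called higher. The transcription factors called higher there included Atf4 (1.5, adjusted p = 0.0313) and Rela (0.91, adjusted p = 0.0402), beside the BH3-only pair of Bbc3 and Pmaip1. These list calls depended on single libraries: leaving out 1 library gave 0 to 5 transcription factors, 0 to 4 death receptor genes and 0 to 3 inhibitors of apoptosis. No gene of these 3 lists was called without sham 1, sham 2, sham 4, CPB 2, CPB+Nitrite 1 or CPB+Nitrite 4, with the replicate block, or in the fit of those groups alone.

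Genes whose log2 CPM followed a member most closely over the 12 libraries are given as a description, since libraries share group, depth and composition. Bak1 was followed by Nop14 and Zc3hav1 (Pearson r = 0.992 each), Bid by Timd2 (r = 0.992) and Kpna3 (r = 0.981), and Mcl1 by Adamts1 (r = 0.989) and Ino80 (r = 0.983). Sdcbp (r = 0.989) and Fbxo34 (r = 0.987) were nearest to Bbc3, and Atp6v1b2 (r = 0.980) and Lsm11 (r = 0.979) to Bcl2l1. Bcl2 was followed by Tex15 (r = 0.975) and Cldn16 (r = 0.967), the latter a tight junction gene of the loop of Henle. For Pmaip1 the nearest genes were looser, Fam241a at r = 0.941 and Itga2 at r = 0.937.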

How the data were processed

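RNA from 12 rat kidney samples was sequenced (4 sham, 4 CPB and 4 CPB+Nitrite, grouped by the labels). A strand-specific NEBNext Ultra II Directional kit was used, per the labels' protocols. Tools named in the submitters' processing notes are Salmon 1.2.1, cutadapt 1.18, bcl2fastq 2.19 and R 3.5.1, on build mRatBN7.2. Their order and the strand setting are not given in the sources used here. The authors deposited estimated counts per gene, which were rounded here. They also deposited a scaled signal (counts times 1 factor per library, 0.803 to 1.51), used for symbols, coordinates and an alternative scaling.

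Genes were kept by edgeR's filterByExpr (minimum count 10), so that 14664 were tested, holding at least 99.9% of reads. All libraries entered 1 fit (edgeR 4.0.16, R 4.3.3, glmQLFTest, two-sided, 9 residual degrees of freedom, biological coefficient of variation 0.317), and the SE came from the F statistic. Totals were 16.8 to 25.8 M reads, with 4 replicates per group. The 10 members, pathway lists and marker lists were chosen with earlier results of these data known. Named genes were the members, the other tested family genes, up to 4 called genes of smallest p per list, the 2 genes most like each called member, and Havcr1. Ftl1 was named because it overlaps Bax, and a few genes that the rule allows are not reported here. Alternatives used other scalings and filters, limma 3.58.1 voom, DESeq2 1.42.0, the compared groups alone, a replicate block and leave-one-out fits. No library pair held identical values. An exact two-sided permutation test of each member in each comparison (30 tests, 70 arrangements) gave its smallest possible p, 0.0286, 13 times, adjusted to 0.0659.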

Additional observations from a re-analysis of the deposited data

Results flagged for a closer look

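Each member was checked in each group of 4 libraries for a single library far from the rest, by the gap to its nearest neighbour over the group's range against Dixon's critical value, in 30 groups. Chance alone marks about 1 in 20 such groups. Bax in CPB 2 was at 37.8 CPM, below the other CPB libraries at 41.5 to 42.2 CPM (ratio 0.833). Bmf in CPB+Nitrite 3 was at 38.5 CPM, above the other nitrite libraries at 17.1 to 19.2 CPM (ratio 0.902), and it was the highest Bmf level of the 12 libraries.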

How the results depend on the processing

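Against sham, CPB had 7 to 9 members called under the 21 alternative fits, with no change of direction. Bcl2, Bcl2l1, Mcl1, Bak1, Bid, Bbc3 and Pmaip1 were called in all 21 of them. The exact permutation test, not counted among these fits, called no member, as its smallest possible p adjusted to 0.0659. Genes called in these fits ran from 4692 of 14814 tested (without sham 2) to 8997 of 14664 (voom). Leaving out 1 library gave 7 to 9 members and 4692 to 7574 genes. With total-count scaling the all-gene median went from -0.05 to -0.24, and 34.8% rather than 50.3% of calls were higher. Nitrite comparisons depended on the processing. For CPB+Nitrite against CPB, DESeq2 called 2239 genes and 2 members, voom called 1 gene, and leaving out 1 library gave 0 to 2865 genes and 0 to 3 members. The highest of these came without CPB+Nitrite 1, and without CPB 1 there were 4 genes. For CPB+Nitrite against sham, 705 genes and 2 members became 2171 and 4 with DESeq2, 2870 and 5 with voom, and 0 and 0 with only the libraries of those groups. Total-count scaling left 1 member called, and leaving out 1 library gave 0 to 2976 genes and 0 to 4 members. The cause was not tested.

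Signs reversed for CPB+Nitrite against CPB in 8 fits of uncalled members. Bcl2l11 became 0.031 with total counts and ran from -0.34 to 0.12 over the fits that left out 1 library, turning positive without CPB 3 or CPB+Nitrite 2. Bmf became -0.0073 with voom and ran from -0.20 to 0.43, turning negative without CPB+Nitrite 3, as did Bcl2, which ran from -0.069 to 0.41. Pmaip1 ran from -0.41 to 0.51, turning negative without CPB 2 or CPB+Nitrite 4.

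The labels do not say that equal replicate numbers pair the libraries, and 12 pairs cannot decide it. Same-numbered libraries had deviations correlated at -0.107 to 0.381, with 3 of 12 pairs over 0.1. Of the 12 libraries, 5 correlated best with their own number. With the number as a replicate block, CPB+Nitrite against sham had 28 genes and 0 members called (edgeR adjusted p = 0.0700 for Bbc3 and 0.0733 for Pmaip1), and Bcl2l11 was called in CPB against sham (adjusted p = 0.0432).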
